A study of Rattus norvegicus with 12 samples.

Results

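Collagens and other extracellular matrix proteins were followed in rat lung as a set of 38 genes, grouped by the structure each protein belongs to. A gene was read from a probe set (a group of short probes on the array) that the platform annotation assigns to that gene alone, and where several such probe sets existed the one with the highest mean over the 12 arrays was used. This gave a probe set for 37 of the 38 genes, among 14218 genes named in the whole series, and Thbs1 was not analysed here. All 37 were bright enough to be tested, among 10554 tested genes. The series compares the right lung of Dahl Salt Sensitive rats (SS), an inbred strain that becomes hypertensive on a salty diet, with that of Brown Norway rats (BN), an inbred strain often used as its normotensive counterpart. Animals of 250 to 350 g were either controls or had been ventilated in a mode labelled HTV, which the labels do not spell out and which in lung research usually stands for high tidal volume, an overstretching form of mechanical ventilation. The 4 groups, SS control, SS HTV, BN control and BN HTV, held 3 arrays each, whose titles carry different numbers; the labels do not say outright that each came from its own animal, so every p-value speaks only of how much these arrays vary, which may be partly technical. The series' design text calls the strains parents. All lungs were flushed with saline through the pulmonary artery and frozen, no engineered allele is named, and neither the tidal volume nor the duration of ventilation is known here.

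The extracellular matrix of the lung is a set of interlocking scaffolds. Fibrillar collagens carry tension, elastic fibres return the stretched alveolar wall to its resting length, lysyl oxidases cross-link both, and small leucine-rich proteoglycans sit on collagen fibrils and set their spacing. Basement membranes, built of laminin and collagen IV networks joined by nidogen and perlecan, hold the epithelium against the capillary endothelium, and matricellular proteins such as tenascin C and osteopontin are made mainly in growing or injured tissue.

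Intensities are linear and in arbitrary units, and an intensity does not rank genes against each other. Differences are given in log2(intensity + 16) with the standard error (SE) of a limma model fitted to the 12 arrays. A gene passed the test when its p-value, adjusted by the Benjamini-Hochberg method over all 18625 probe sets tested, lay under 0.05. Every group has n = 3, the number of arrays limits the precision, and in whole lung fewer cells of a type and less RNA per cell cannot be told apart. Whether the strains differ in sequence under the probes was not tested.

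The array SS control 3 stood apart from the rest. It had the lowest mean correlation with its own group (0.950), and of 35 probe sets that separated the other SS arrays from the BN arrays by over 1.5 log2 units it lay past the midpoint towards BN in 13. It was the highest or the lowest of the 12 arrays in 14 of the 37 matrix genes (37.8%) and in 36.7% of all tested genes. The 5-prime to 3-prime signal ratio of beta-actin, a measure of RNA integrity, averaged -0.70 ± 0.43 in log2 (SD, n = 6) in SS and -1.17 ± 0.23 (n = 6) in BN lungs (two-sided exact permutation test, p = 0.0498), so it moved with strain. Between HTV and control lungs it differed by -0.07 (p = 0.781 in the same exact permutation test). On SS control 3 it was -1.40, the lowest of the SS arrays and inside the BN range. The same ratio of GAPDH averaged -0.29 ± 0.24 (SD, n = 6) in SS and -0.51 ± 0.12 (n = 6) in BN lungs (exact permutation test, p = 0.0736). BN HTV 3 also differed from its group, in neutrophil genes. Mmp9, a neutrophil protease, read 471, 296 and 19.2 in the BN HTV lungs and 4.0 to 15.0 in BN control lungs, and Mmp8 read 573, 265 and 68.2 against 28.2 to 39.4. S100a8, a neutrophil calcium-binding protein, read 2569.7, 2737 and 711 against 194 to 346, so BN HTV 3 lay nearest to the controls in all 3. Counts are therefore also given without SS control 3, without BN HTV 3 and with the beta-actin ratio as a covariate.

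Matrix genes that differed between the strains were mostly lower in BN than in SS lungs, both in control lungs and after HTV. In control lungs 9 of the 37 genes were lower in BN and 1 was higher past the test, beside 5.83% of all tested genes lower and 5.11% higher (10.9% called in all). After HTV 13 were lower and 0 higher, beside 3.94% lower and 3.18% higher (7.13% in all). The median difference of the 37 genes, BN minus SS, was -0.27 in control lungs against 0.01 over all genes, and -0.40 after HTV against -0.01 over all genes. In the HTV lungs 35 of the 37 genes (94.6%) had a negative difference, against 52.2% of all genes. These strain comparisons share no array, but 1 model of all 12 arrays gives the variance of both, so their calls are not independent. In both, 8 genes were lower (21.6%, beside 3.7% of all genes called in both in the same direction). That is 80% of the 10 called in control lungs and 61.5% of the 13 called after HTV. The 391 genes called in both over all genes are 33.9% and 52.0% of their lists. BN arrays all lay below the SS arrays in 14 matrix genes in control lungs (beside 16.2% of all genes) and above them in 2 (beside 16.4%). After HTV they lay below in 22 (beside 15.9%) and above in 1 (beside 12.4%).

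**Figure D1:**
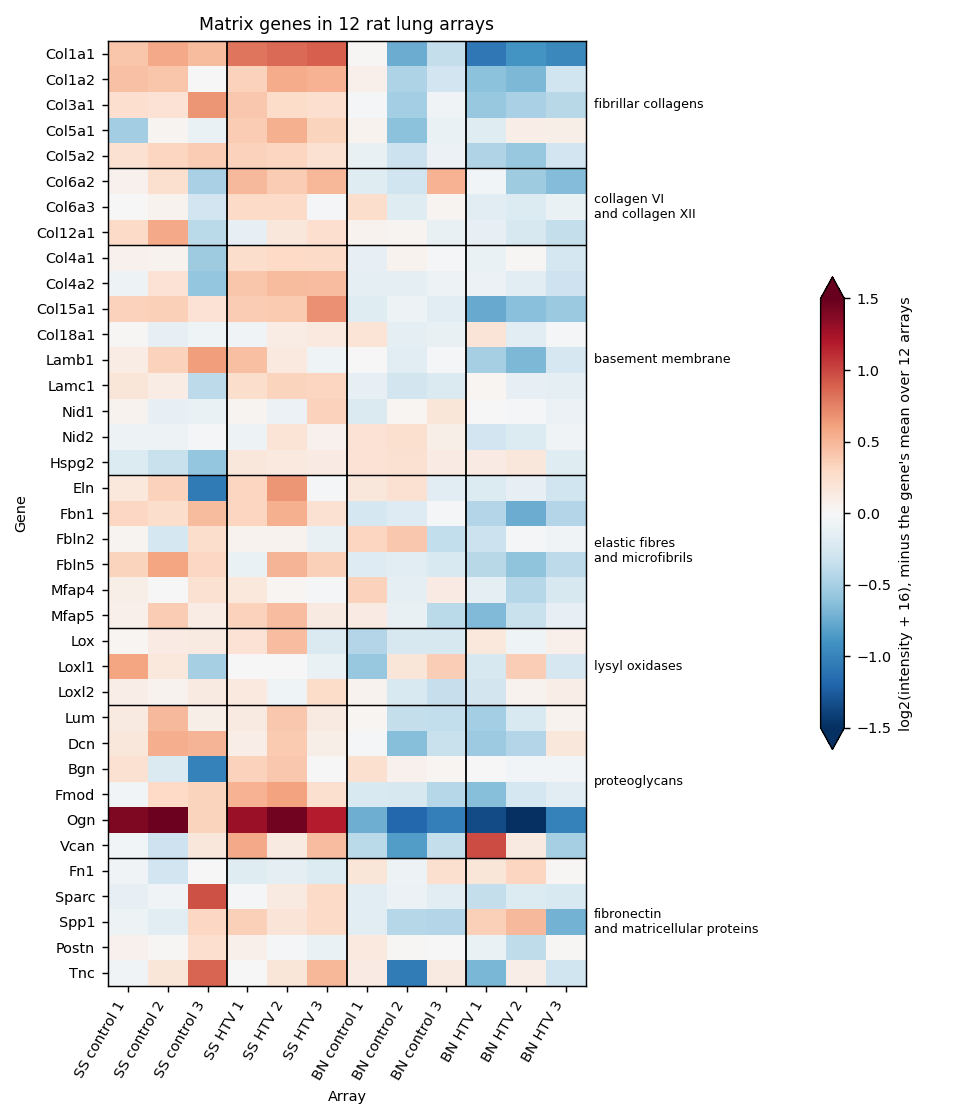
Heat map of the 37 matrix genes (rows, grouped by structure) on the 12 arrays (columns, grouped by strain and condition); colour is log2(intensity + 16) minus the gene's mean over the 12 arrays, cut at -1.5 and 1.5. Red marks most fibrillar collagens and Ogn on SS arrays and blue on BN arrays, and SS control 3 differs from the other SS control arrays in several rows.

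Without SS control 3, 10 genes passed in control lungs, 8 of them shared with the full set of arrays, beside 2159 probe sets (2281 with all arrays). After HTV 18 passed, including all 13, beside 2200 probe sets (1535 with all arrays). SS control 3 is not in the HTV strain comparison and acts on it only through the variance of the shared model. With the beta-actin ratio as a covariate 10 passed in control lungs (9 shared, with Dcn lost), beside 1894 probe sets. After HTV 9 passed (9 shared, with Col4a2, Col6a2, Fbln5 and Mfap5 lost), beside 581 probe sets. Leaving out BN control 2 left 3 of the 10 in control lungs (Col1a1, Col15a1 and Ogn), beside 744 probe sets. Leaving out BN control 3 or SS control 2 left 6, beside 1330 and 1127 probe sets. In HTV lungs 9 of the 13 were left without SS HTV 2 (beside 684 probe sets) and 9 without BN HTV 2 (beside 888). Col4a2, Col6a2, Lamb1 and Mfap5 were lost each time. Without BN HTV 3 there were 12, 11 of them shared, beside 1178 probe sets.

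The 8 genes lower in BN in both conditions were Col1a1, Col3a1, Col5a2, Col15a1, Fbn1, Fbln5, Fmod and Ogn. For 6 of them RefSeq gives a transcription start on the rat assembly GRCr8, which was built from a Brown Norway animal. The 250 bases before the start of 4 of these genes are shown, written 5′ to 3′ on the gene's strand, because these are the stretches next to the genes whose RNA passed in both strain comparisons; the matching SS sequences were not used here. Capitals mark the letters CAGAC or their reverse complement GTCTG, the core of the element that Smad proteins, the transcription factors of the TGF-beta pathway, can bind.
Ogn, chr17:15258996-15259245, minus strand: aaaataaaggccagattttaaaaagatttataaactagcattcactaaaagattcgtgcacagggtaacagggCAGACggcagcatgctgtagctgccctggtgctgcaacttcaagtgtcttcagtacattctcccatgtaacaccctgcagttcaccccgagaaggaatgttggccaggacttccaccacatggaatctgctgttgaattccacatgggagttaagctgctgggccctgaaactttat
Col5a2, chr9:55090152-55090401, minus strand: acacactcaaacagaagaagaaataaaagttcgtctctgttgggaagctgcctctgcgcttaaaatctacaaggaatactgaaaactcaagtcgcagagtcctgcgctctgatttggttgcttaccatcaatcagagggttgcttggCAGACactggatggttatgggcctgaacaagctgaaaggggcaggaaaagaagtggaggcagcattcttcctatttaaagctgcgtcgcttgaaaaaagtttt
Fbn1, chr3:133203391-133203640, minus strand: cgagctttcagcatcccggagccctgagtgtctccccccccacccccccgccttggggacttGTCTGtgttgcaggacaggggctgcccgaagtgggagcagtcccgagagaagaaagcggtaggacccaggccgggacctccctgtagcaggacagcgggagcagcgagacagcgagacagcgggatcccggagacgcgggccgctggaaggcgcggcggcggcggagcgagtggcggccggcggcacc
Col15a1, chr5:66297296-66297545, plus strand: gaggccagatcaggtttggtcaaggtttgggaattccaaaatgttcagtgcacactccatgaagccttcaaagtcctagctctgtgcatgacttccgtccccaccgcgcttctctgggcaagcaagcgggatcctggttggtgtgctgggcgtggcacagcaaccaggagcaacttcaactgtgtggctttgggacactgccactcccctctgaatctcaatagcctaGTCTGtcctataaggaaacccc
The letters CAGAC, searched on both strands, were in the windows of all 6 genes, in 15 of the 25 matrix genes with a window (60%) and in 42.9% of all 33469 windows. The TATA box letters TATAAA were in 1 of the 6 (Ogn), in 20% of the matrix genes and in 12.9% of all windows. The letters GGGCGG, bound by Sp1, were in 2 of the 6, in 52% of the matrix genes and in 30.5% of all windows, CACCC in 2, 52% and 49.2%, and CCAAT in 1, 32% and 34.0%. A longer palindrome of the Smad element, GTCTAGAC, was in 0 of the 25 and in 0.173% of all windows. Each matrix gene was counted by 1 window, while the 33469 were counted by window and not by gene, so the shares differ in unit. Such matches describe the letters of these windows and do not show that a factor binds there.

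The proteoglycan Ogn (osteoglycin, a small leucine-rich proteoglycan that binds collagen fibrils) differed most between the strains. Its intensity was 1252, 1311 and 585 in SS control lungs and 1155, 1293 and 1067 in SS HTV lungs. In BN it was 272, 196 and 219 in control and 173, 118 and 221 in HTV lungs. Every SS array lay above every BN array, and SS control 3, the third of the control values, was the lowest SS array by far. BN minus SS was -2.05 ± 0.27 (SE) in control lungs, 4.13-fold lower (limma, adjusted p = 0.000520), and -2.71 ± 0.27 after HTV, 6.52-fold lower (adjusted p = 4.69e-05). Without SS control 3 the difference in control lungs was -2.42 (limma, adjusted p = 1.43e-05). Ogn has 3 further probe sets, which gave -1.65, -0.68 and -0.81 in control lungs and -2.05, -0.24 and -0.57 after HTV. All 6 differences point the same way. The first of these probe sets passed in both conditions, the last only in control lungs and the remaining one in neither.

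Among the fibrillar collagens, all 5 had a negative BN minus SS difference in both conditions, 3 passed in control lungs and 4 after HTV. Col1a1, a chain of type I collagen, the main load-bearing collagen, read 1109.6, 1227 and 1156 in SS control and 1454, 1503 and 1552 in SS HTV lungs. In BN lungs it read 831, 484 and 642 in controls and 385, 434 and 413 after HTV. No BN array reached an SS array, and the gap was wider after HTV. The difference was -0.85 ± 0.15 in control lungs (limma, adjusted p = 0.00314) and -1.83 ± 0.15 after HTV, 3.56-fold lower (adjusted p = 8.73e-06). A second, dimmer Col1a1 probe set gave -0.33 in control lungs, which did not pass (limma, adjusted p = 0.109), and -1.02 after HTV (adjusted p = 0.000432).

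Col1a2, the other chain of type I collagen, read 1365, 1348 and 1001 in SS control, 1277, 1489.9 and 1455 in SS HTV, 1062, 723 and 818 in BN control and 650.2, 623 and 811 in BN HTV lungs. Control groups overlapped through SS control 3 and BN control 1, and the HTV groups did not overlap. The difference was -0.51 ± 0.16 in control lungs, just short of the threshold (limma, adjusted p = 0.0504), and -1.01 ± 0.16 after HTV (adjusted p = 0.00172). With SS control 3 left out the control difference was -0.65 (limma, adjusted p = 0.0183). A second Col1a2 probe set, nearly as bright, gave -0.42 in control lungs, which passed (limma, adjusted p = 0.0114), and -0.93 after HTV, which also passed.

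Col3a1, the type III collagen that forms mixed fibrils with type I, read 2481, 2436 and 3320.3 in SS control, 2766, 2517 and 2479 in SS HTV, 2057, 1457 and 2003 in BN control and 1401, 1488 and 1557 in BN HTV lungs. All BN arrays lay below all SS arrays of the same condition. The differences were -0.58 ± 0.14 and -0.80 ± 0.14 (limma, adjusted p = 0.0201 and 0.00410). Col5a2, a chain of type V collagen, which starts fibrils and limits their width, read 1434, 1533 and 1590.2 in SS control, 1551, 1536 and 1431 in SS HTV, 1129, 977 and 1144 in BN control and 886, 815 and 1001 in BN HTV lungs. Again the strains did not overlap, with differences of -0.48 ± 0.10 and -0.74 ± 0.10 (limma, adjusted p = 0.00901 and 0.000677). A second Col5a2 probe set gave -0.35 in control lungs, which did not pass (limma, adjusted p = 0.0614), and -0.61 after HTV, which passed (adjusted p = 0.00529). Its partner chain Col5a1 differed by -0.03 ± 0.18 and -0.41 ± 0.18 and did not pass in either condition (limma, adjusted p = 0.923 and 0.183).

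**Figure D2:**
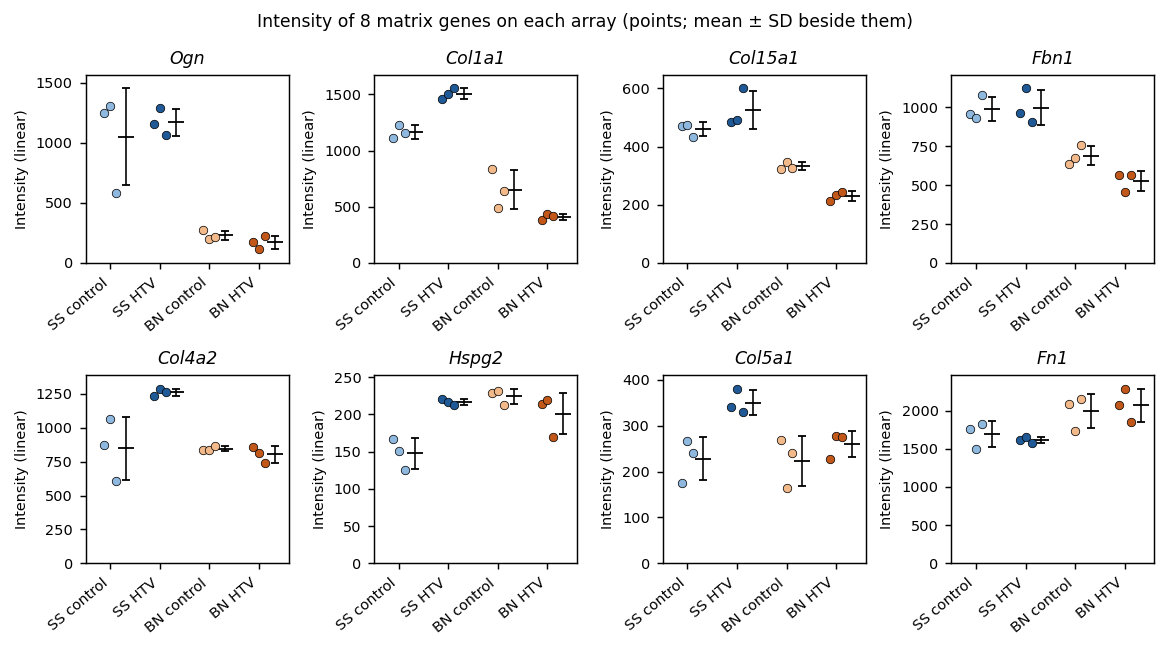
Linear intensity of 8 matrix genes on each of the 12 arrays (points, 3 for each group), with the group mean ± SD (n = 3) beside them; each panel starts at 0 and has its own scale. SS and BN arrays of Ogn, Col1a1, Col15a1 and Fbn1 do not overlap, and Col4a2 and Hspg2 are higher in SS HTV than in SS control lungs. The Fn1 control groups overlap, and its BN HTV arrays lie above its SS HTV arrays.

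Collagen VI makes a beaded network beside cells, and collagen XII bridges fibrils. Col6a2 read 518, 585 and 347 in SS control, 700.0, 646 and 701 in SS HTV, 435, 399 and 714 in BN control and 480.2, 336 and 309 in BN HTV lungs. BN control 3 was the highest of the 12 arrays, the control groups overlapped, and the HTV groups did not. Only the HTV comparison passed, at -0.86 ± 0.23 (limma, adjusted p = 0.0327), and it no longer passed when any of the SS HTV arrays, BN HTV 2 or BN HTV 3 was left out. A second, dim Col6a2 probe set passed there too, at -0.55 (limma, adjusted p = 0.0264), and rose with HTV in SS by 0.57 (adjusted p = 0.0238). Col6a3 read 1323, 1375 and 1081 in SS control, 1617, 1617 and 1299 in SS HTV, 1591, 1162 and 1358 in BN control and 1174, 1144 and 1235 in BN HTV lungs. Its difference after HTV, -0.34 ± 0.13, did not pass (limma, adjusted p = 0.135), nor did that of Col12a1, -0.34 ± 0.19 (adjusted p = 0.320).

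Of the 9 basement membrane genes 1 was lower and 1 higher in BN control lungs, and 3 were lower in BN after HTV, where all 9 differences were negative. Col15a1, a collagen that links basement membranes to the fibrils beneath, read 471, 476 and 432 in SS control and 485, 491 and 599.7 in SS HTV lungs. In BN it read 324, 348 and 326 in control and 211, 232 and 244 in HTV lungs. The 4 groups did not overlap at any point, and their order was SS HTV, SS control, BN control and BN HTV from high to low. BN minus SS was -0.45 ± 0.11 in control lungs (limma, adjusted p = 0.0175) and -1.14 ± 0.11 after HTV, 2.20-fold lower (adjusted p = 3.43e-05). A second Col15a1 probe set gave -0.54 in control lungs, which did not pass (limma, adjusted p = 0.0884), and -1.30 after HTV, which passed (adjusted p = 0.00144).

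Hspg2 (perlecan, the heparan sulfate proteoglycan of basement membranes) was the only one of the 37 genes that was higher in BN past the test by its brightest probe set. It read 167, 151 and 125 in SS control, 221, 217 and 213 in SS HTV, 229, 231 and 212 in BN control and 214, 220.0 and 169 in BN HTV lungs. The SS control arrays lay below all others, and SS HTV arrays reached the range of BN lungs. Its strain difference was 0.56 ± 0.13 in control lungs (limma, adjusted p = 0.0136) and -0.11 ± 0.13 after HTV (adjusted p = 0.663). With SS control 3 left out it was 0.46 in control lungs (limma, adjusted p = 0.0330).

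Col4a1 and Col4a2 encode the paired chains of the main collagen IV network. Col4a2 read 871, 1065 and 607 in SS control, 1233, 1286 and 1266 in SS HTV, 837, 835 and 867 in BN control and 861, 813 and 737 in BN HTV lungs. Col4a1 read 1598, 1577 and 1049 in SS control, 1836, 1884 and 1866 in SS HTV, 1396, 1581 and 1487 in BN control and 1426, 1544 and 1272 in BN HTV lungs. In both genes SS control 3 was the lowest of the 12 arrays and the SS HTV arrays were the highest. Between strains Col4a2 differed by 0.03 ± 0.15 in control lungs and by -0.64 ± 0.15 after HTV, where it passed (limma, adjusted p = 0.0201), and Col4a1 by 0.10 ± 0.14 and -0.40 ± 0.14 (adjusted p = 0.662 and 0.100). Lamb1, a laminin chain, read 292, 349 and 424 in SS control, 374, 299.8 and 256 in SS HTV, 270.2, 241 and 264 in BN control and 187, 164 and 224 in BN HTV lungs. Within each condition the strains did not overlap, and the difference passed after HTV, at -0.65 ± 0.16 (limma, adjusted p = 0.0250), but not in control lungs, at -0.42 ± 0.16 (adjusted p = 0.102). After HTV the call of Lamb1 ended when SS HTV 1, SS HTV 2, BN HTV 1 or BN HTV 2 was left out, and that of Col4a2 when SS HTV 2, SS HTV 3, BN HTV 2 or BN HTV 3 was. Lamc1, Nid1, Nid2 and Col18a1 did not pass in either strain comparison, with differences of -0.18, 0.05, 0.24 and 0.04 in control lungs and -0.38, -0.14, -0.25 and -0.06 after HTV. A second Col18a1 probe set was higher in BN control lungs, at 0.46 (limma, adjusted p = 0.0328), and gave -0.05 after HTV.

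Of the 6 genes of elastic fibres and their microfibrils, 2 were lower in BN control lungs and 3 in BN HTV lungs. Fbn1 (fibrillin, the backbone of the microfibril) read 959, 931 and 1077 in SS control, 966, 1121 and 907 in SS HTV, 638, 673 and 759 in BN control and 565, 453 and 567 in BN HTV lungs. The strains did not overlap, at -0.51 ± 0.12 in control lungs and -0.90 ± 0.12 after HTV (limma, adjusted p = 0.0158 and 0.000566). Its second probe set gave -0.25 and -0.35, neither of which passed (limma, adjusted p = 0.152 and 0.0753). Fbln5 (fibulin, needed to assemble elastin on microfibrils) read 406, 487 and 401 in SS control, 296, 461 and 412 in SS HTV, 278, 282 and 269 in BN control and 236, 205 and 239 in BN HTV lungs. Each BN array was below each SS array, and the differences were -0.61 ± 0.14 and -0.72 ± 0.14 (limma, adjusted p = 0.0174 and 0.00814).

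Mfap5, a microfibril glycoprotein, read 399.8, 499.5 and 411 in SS control, 488, 531 and 419 in SS HTV, 415, 349 and 283 in BN control and 234, 298 and 346 in BN HTV lungs. It passed after HTV, at -0.69 ± 0.16 (limma, adjusted p = 0.0197), and not in control lungs, at -0.32 ± 0.16 (adjusted p = 0.209). Its call after HTV ended when SS HTV 2, BN HTV 1 or BN HTV 2 was left out. Elastin itself, Eln, read 744, 848 and 310.0 in SS control, 830.4, 1060.0 and 651 in SS HTV, 748, 782 and 585 in BN control and 572, 608 and 535 in BN HTV lungs. SS control 3 had the lowest value of all. The strain difference of Eln, 0.26 in control lungs (95% interval -0.35 to 0.87) and -0.53 after HTV (-1.14 to 0.08), did not pass and is wide enough to hold a change in either direction. A second Eln probe set gave 0.74 in both conditions and did not pass. Eln was -0.53 after HTV and passed when SS control 3 was left out (limma, adjusted p = 0.0465). Fbln2 and Mfap4 did not pass, with 0.10 and 0.01 in control lungs and -0.13 and -0.32 after HTV.

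No lysyl oxidase passed in a strain comparison. Lox, the founding enzyme of the family, read 676, 723 and 731 in SS control, 771, 919.7 and 566 in SS HTV, 482, 557 and 559.5 in BN control and 739, 632 and 699 in BN HTV lungs. BN control arrays were all below the SS control arrays, and the HTV groups overlapped. Lox differed by -0.41 ± 0.14 in control lungs (limma, adjusted p = 0.0819) and -0.10 ± 0.14 after HTV (adjusted p = 0.745). Its second probe set gave -0.49 in control lungs, which passed (limma, adjusted p = 0.0370). Loxl1 and Loxl2 differed by -0.09 and -0.27 in control lungs and by 0.00 and -0.16 after HTV.

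Among the other proteoglycans, Fmod (fibromodulin, which binds collagen fibrils as Lum and Dcn do) read 232, 297 and 306 in SS control, 351, 371 and 286 in SS HTV, 202, 201 and 174 in BN control and 148, 196 and 211 in BN HTV lungs. The strains did not overlap, and the difference was -0.49 ± 0.15 in control lungs, barely past the threshold (limma, adjusted p = 0.0493), and -0.81 ± 0.15 after HTV (adjusted p = 0.00535). The call of Fmod in control lungs ended when SS control 2, SS control 3, SS HTV 1, SS HTV 2, BN HTV 2 or any BN control array was left out. Dcn (decorin) read 395, 517 and 504 in SS control, 375, 461 and 372 in SS HTV, 339.6, 218 and 272 in BN control and 235, 253 and 394 in BN HTV lungs. It passed in control lungs, at -0.75 ± 0.19 (limma, adjusted p = 0.0252), and not after HTV, at -0.46 ± 0.19 (adjusted p = 0.168), where BN HTV 3 lay inside the SS range. When SS control 3 was left out neither Dcn, at -0.70 (limma, adjusted p = 0.0582), nor Fmod, at -0.42 (adjusted p = 0.114), passed in control lungs.

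Lum (lumican) read 223, 289 and 215 in SS control, 221, 270.2 and 222 in SS HTV, 206, 154 and 153 in BN control and 136, 169 and 209 in BN HTV lungs. Its differences of -0.47 and -0.45 did not pass (limma, adjusted p = 0.0843 and 0.122). Bgn (biglycan) and Vcan (versican, a large hyaluronan-binding proteoglycan) differed by 0.45 ± 0.23 and -0.47 ± 0.29 in control lungs and by -0.28 ± 0.23 and -0.18 ± 0.29 after HTV, and did not pass.

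None of the 5 genes for fibronectin and matricellular proteins passed in a strain comparison. Fn1 (fibronectin, the adhesive glycoprotein on which new matrix is laid) read 1759, 1493 and 1823 in SS control, 1612, 1653 and 1579 in SS HTV, 2079.9, 1734 and 2151 in BN control and 2076, 2281 and 1849 in BN HTV lungs. After HTV it was the only gene of the 37 whose BN arrays all lay above the SS arrays, at 0.35 ± 0.11 (limma, adjusted p = 0.0741). This comparison passed without SS control 3 (limma, adjusted p = 0.0485). Sparc (osteonectin) differed by -0.40 ± 0.21 and -0.40 ± 0.21, with SS control 3 at 3035 against 1431 and 1504 on the other SS control arrays. Its second probe set gave -0.48 and -0.51 and passed in both conditions (limma, adjusted p = 0.0117 and 0.0105).

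**Figure D3:**
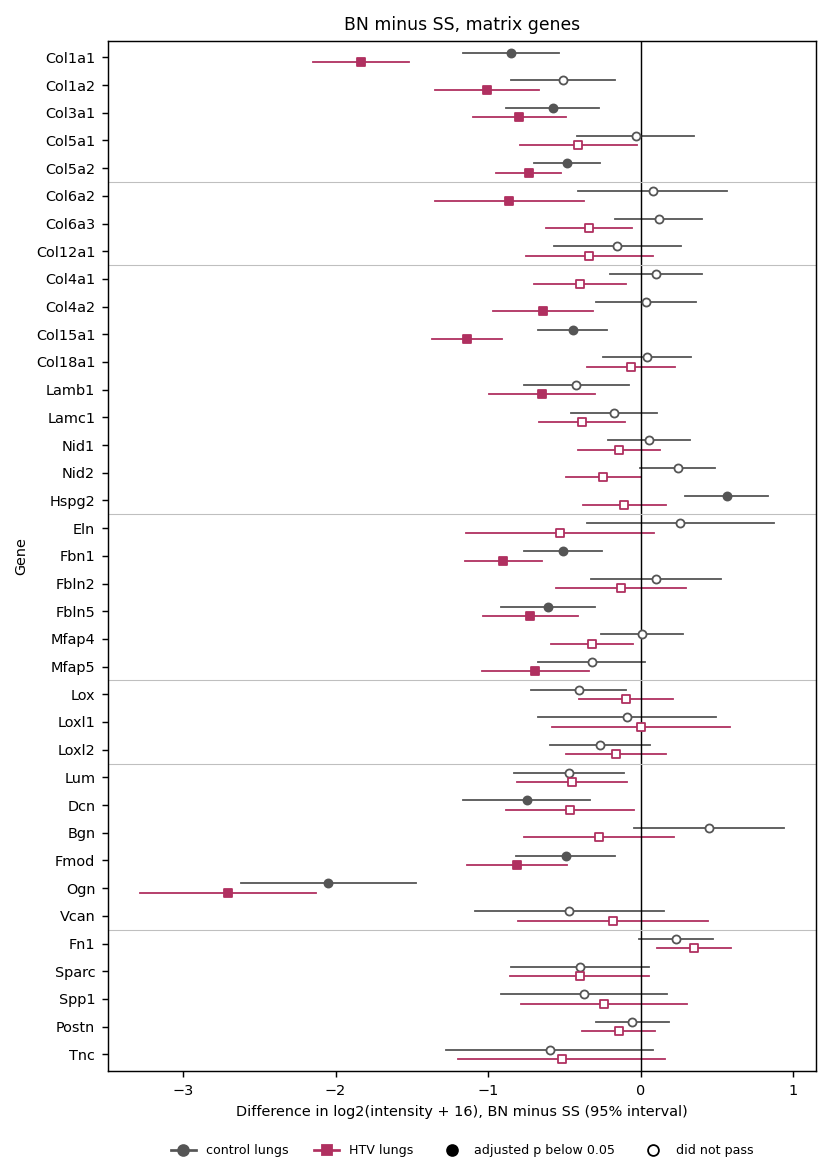
BN minus SS difference in log2(intensity + 16) for the 37 matrix genes, in control lungs (grey circles) and HTV lungs (red squares), with 95% intervals of the limma model; filled symbols passed the test. Ogn and Col1a1 lie farthest to the left, Hspg2 in control lungs is the only filled symbol to the right of 0, and Fn1 is right of 0 in both conditions.

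HTV changed few matrix genes past the test. In SS lungs 2 of the 37 rose and 0 fell (5.41%), beside 8% of all tested genes called, 3.88% upward and 4.11% downward. In BN lungs 0 rose and 2 fell (5.41%), beside 5.62% called, 2.97% upward and 2.65% downward. With HTV averaged over the strains 1 gene rose (2.70%), beside 15.5% of all genes, 6.83% upward and 8.66% downward. The share of matrix genes called in either strain was near that of all genes. The median difference, HTV minus control, was 0.13 in SS against -0.01 over all genes, and -0.15 in BN against -0.03.

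In SS lungs the 2 genes that passed by their brightest probe set belong to the basement membrane. Col4a2 rose by 0.60 ± 0.15, 1.52-fold (limma, adjusted p = 0.0288), and Hspg2 by 0.52 ± 0.13, 1.43-fold (adjusted p = 0.0249). Without SS control 3, whose Col4a2 and Hspg2 values were the lowest of the 12 arrays, Col4a2 still passed, at 0.38 (limma, adjusted p = 0.0469), and Hspg2 did not, at 0.42 (adjusted p = 0.0720). Leaving out any of the SS HTV arrays ended both calls, and leaving out SS control 2 ended that of Hspg2. The SS HTV arrays lay above all SS control arrays in 8 genes (21.6% of the 37, beside 14.1% of all genes) and below them in 0 (beside 16.6%). Besides Col4a2 and Hspg2 these were Col4a1, at 0.42 ± 0.14, Lamc1, at 0.34 ± 0.13, Col15a1, at 0.18 ± 0.11, Col1a1, at 0.36 ± 0.15, Col5a1, at 0.60 ± 0.18, and Col6a2, at 0.52 ± 0.23. The adjusted p of these 6 was between 0.0550 and 0.306 (limma), so none passed by its brightest probe set. A second, dim probe set of Col6a2, which is not a basement membrane gene, rose by 0.57 and passed (limma, adjusted p = 0.0238).

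Col5a1, a type V collagen chain, read 175, 267 and 241 in SS control, 341, 381 and 329 in SS HTV, 269, 163 and 239 in BN control and 227, 278 and 275 in BN HTV lungs. The SS HTV arrays were the 3 highest of the 12, and the BN groups overlapped. Col5a1 was the gene that rose with HTV averaged over the strains, by 0.41 ± 0.13 (limma, adjusted p = 0.0403), with 0.60 ± 0.18 in SS and 0.22 ± 0.18 in BN lungs. Its call held when SS control 2, SS control 3, BN control 1 or BN HTV 1 was left out and ended when any of the other 8 arrays was. A second, dimmer Col5a1 probe set gave 0.16 averaged over the strains (limma, adjusted p = 0.380), with 0.47 in SS and -0.16 in BN, and did not pass. Averaged over the strains, second or further probe sets of Lox, at 0.36, and Vcan, at 0.88, passed (limma, adjusted p = 0.0261 and 0.0286), although the brightest ones of these genes did not.

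In BN lungs Col1a1 fell 1.53-fold, at -0.62 ± 0.15 (limma, adjusted p = 0.0257), and Col15a1 fell 1.42-fold, at -0.51 ± 0.11 (adjusted p = 0.0134). Col1a1 missed the threshold when BN control 1, BN control 3 or any BN HTV array was left out, and Col15a1 when BN control 2 or BN HTV 1 was left out. Without BN HTV 3 there were 3 calls, Col15a1, Spp1 and Vcan. The second probe sets of Col1a1, at -0.42, and Col15a1, at -0.45, did not pass for HTV in BN (limma, adjusted p = 0.0780 and 0.216). The BN HTV arrays lay below all BN control arrays in 10 of the 37 genes (27.0%, beside 16.2% of all genes), namely Col1a1, Col12a1, Col15a1, Fbn1, Fbln5, Bgn, Sparc, Lamb1, Nid2 and Mfap4. They lay above them in 1, Lox (beside 10.4%). Of those that did not pass, Nid2 differed by -0.36 ± 0.11, Fbn1 by -0.38 ± 0.12 and Mfap4 by -0.38 ± 0.12 (limma, adjusted p = 0.0828, 0.0833 and 0.0977). Lox differed by 0.36 ± 0.14 (limma, adjusted p = 0.176), and its second probe set rose by 0.67 (adjusted p = 0.0136).

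**Figure D4:**
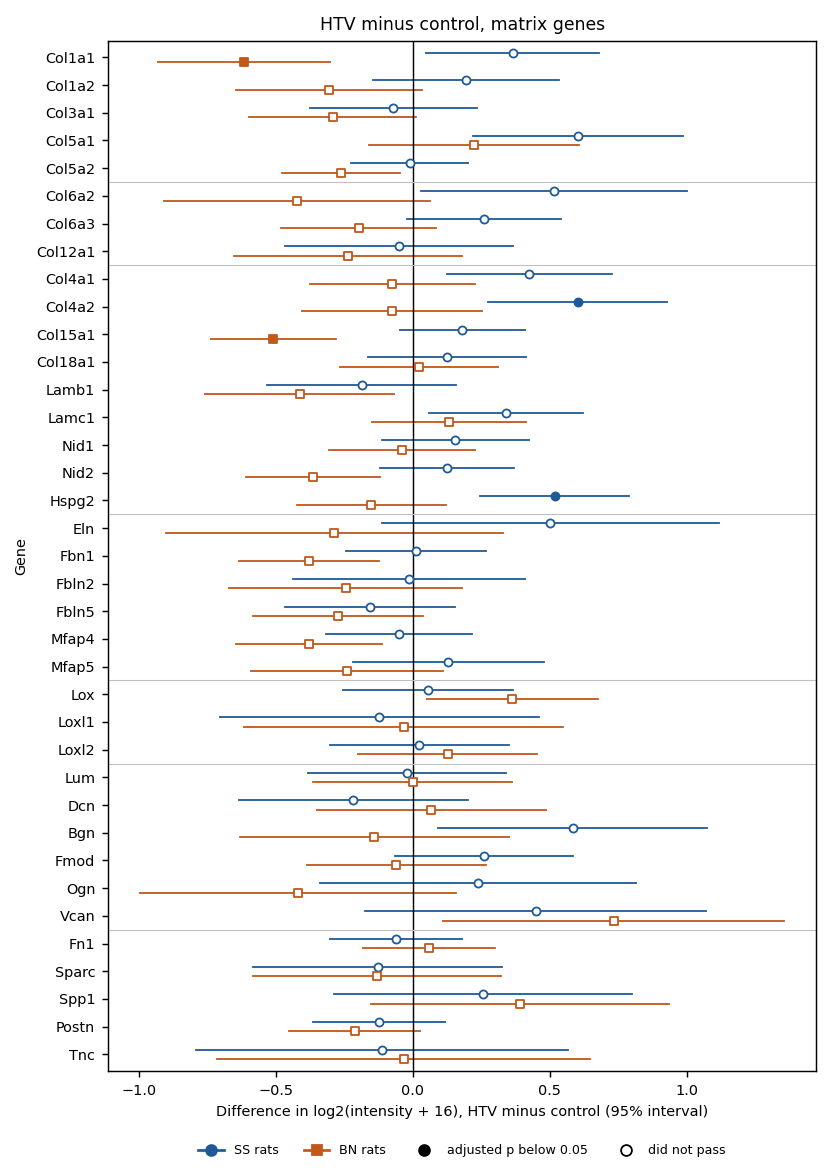
HTV minus control difference in log2(intensity + 16) for the 37 matrix genes in SS rats (blue circles) and BN rats (orange squares), with 95% intervals of the limma model; filled symbols passed the test. Col4a2 and Hspg2 in SS lie right of 0, Col1a1 and Col15a1 in BN lie left of 0, and the other intervals are drawn as open symbols because they did not pass.

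For Col1a1 and Col15a1 the HTV differences had opposite signs in the strains, with HTV and control arrays not overlapping in either. Such opposite, non-overlapping pairs were 2 of the 37 genes (5.41%) and 0.805% of all tested genes. More loosely, 16 of the 37 genes (43.2%) had a positive HTV difference in SS and a negative one in BN, against 20.2% of all genes. The test of the difference itself, the HTV effect in BN minus that in SS, was -0.98 ± 0.21 for Col1a1 (limma, unadjusted p = 0.000357, adjusted p = 0.528) and -0.69 ± 0.15 for Col15a1 (unadjusted p = 0.000470, adjusted p = 0.528). Neither passed, and 0 of all 10554 genes passed this test in limma, while 11 of the 37 matrix genes (29.7%) and 8.54% of all genes had an unadjusted p under 0.05. The other 9 were Hspg2 (-0.67), Col4a2 (-0.68), Nid2 (-0.49), Col6a2 (-0.94), Col4a1 (-0.50), Col6a3 (-0.46), Fbn1 (-0.39), Bgn (-0.72) and Col1a2 (-0.50), all negative. In Hspg2, Col4a2, Col4a1, Col6a3 and Bgn the lowest of the 12 arrays was SS control 3, which raises their HTV difference in SS. The count by unadjusted p was not made without that array. The median over the 37 was -0.23 against -0.03 over all genes.

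Single arrays carried many of the extremes. SS HTV 2 was the highest of the 12 arrays in 12 of the 37 genes (32.4%, against 6.23% of all genes). BN HTV 2 was the lowest in 9 (24.3% against 12.8%) and BN HTV 1 in 8 (21.6% against 10.2%). Averaged over the 37 genes, log2 values relative to the gene mean were between 0.24 and 0.32 on the SS HTV arrays, between 0.05 and 0.18 on SS control, between -0.23 and -0.04 on BN control and between -0.26 and -0.25 on BN HTV arrays.

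None of the 5 fibronectin and matricellular genes passed for HTV either. Fn1 differed between HTV and control lungs by -0.06 in SS (95% interval -0.30 to 0.18) and by 0.06 in BN (-0.18 to 0.30). Tnc (tenascin C) read 135, 163 and 272 in SS control, 141, 162 and 205 in SS HTV, 156, 60.2 and 157 in BN control and 82.0, 152 and 112 in BN HTV lungs. The groups overlapped throughout, and its HTV differences had intervals of -0.79 to 0.57 in SS and -0.71 to 0.65 in BN. Spp1 (osteopontin) read 60.2, 56.3 and 84.0 in SS control, 87.4, 75.8 and 82.6 in SS HTV, 55.6, 43.7 and 43.2 in BN control and 86.9, 96.6 and 33.2 in BN HTV lungs. BN HTV 2 was the highest and BN HTV 3 the lowest of the 12 arrays, and its differences were 0.25 ± 0.25 in SS and 0.39 ± 0.25 in BN. Postn (periostin) read 1757, 1699.9 and 2002 in SS control, 1775, 1655 and 1572 in SS HTV, 1864, 1703 and 1677 in BN control and 1565, 1282 and 1698 in BN HTV lungs, with differences of -0.12 ± 0.11 and -0.21 ± 0.11. The proteoglycan gene Vcan differed by 0.45 ± 0.29 and 0.73 ± 0.29 (limma, adjusted p = 0.351 and 0.173), with BN HTV 1 at 181 and the other BN HTV arrays at 94.3 and 54.8. With BN HTV 3 left out, Spp1 and Vcan passed in BN, at 0.77 and 1.09 (limma, adjusted p = 0.0202 and 0.0244).

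Other genes of the matrix were read from lists of related collagens, collagen-processing enzymes, basement membrane, elastic fibre, proteoglycan, hyaluronan and integrin genes. The clearest HTV change among them was in Adamtsl2, a microfibril-associated protein that limits TGF-beta activity. It read 132, 118 and 121 in SS control, 316, 409.7 and 373 in SS HTV, 149.5 to 223 in BN control and 456, 588 and 439 in BN HTV lungs. HTV and control arrays did not overlap in either strain, and it rose by 1.45 ± 0.15 in SS and 1.31 ± 0.15 in BN, 2.73-fold and 2.48-fold (limma, adjusted p = 0.000132 and 0.000277). It was 1 of 13 tested genes of its elastic fibre list to change in each strain. For this and the other lists, the share of all tested genes called for HTV was 8% in SS and 5.62% in BN.

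Itga7, a laminin-binding integrin chain, read 33.1, 64.3 and 44.5 in SS control, 143, 203 and 171 in SS HTV, 76.4, 68.3 and 94.0 in BN control and 144, 184 and 116 in BN HTV lungs. It rose by 1.59 ± 0.20 in SS and 0.77 ± 0.20 in BN (limma, adjusted p = 0.000473 and 0.0420), and of 14 tested integrin genes 2 rose in SS and 1 in BN. The other was Itgb3, which rose by 0.58 ± 0.15 in SS (limma, adjusted p = 0.0344). Lyve1, a hyaluronan receptor of lymphatic vessels, rose by 0.60 ± 0.12 and 0.51 ± 0.12 (limma, adjusted p = 0.00749 and 0.0209) and was 1 of 5 tested hyaluronan genes to do so.

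Bmp1, the protease that trims procollagens and activates lysyl oxidase, read 484, 466 and 401 in SS control, 821, 744 and 808 in SS HTV, 494, 651 and 562 in BN control and 585, 504 and 609.8 in BN HTV lungs. It rose in SS by 0.79 ± 0.12 (limma, adjusted p = 0.00155), while the BN groups overlapped, with a log2 difference of -0.00 ± 0.12 (limma, adjusted p = 0.994); the difference between the strains did not pass (limma, adjusted p = 0.528). It was 1 of 15 tested collagen-processing genes to rise in SS, and 0 changed in BN. Among 11 further basement membrane genes Lama5 rose in SS, by 0.58 ± 0.16 (limma, adjusted p = 0.0380), while in BN its HTV arrays also lay above the controls, at 0.30 ± 0.16, without passing (adjusted p = 0.312). Agrn (agrin) fell in BN, at -0.52 ± 0.10 (limma, adjusted p = 0.00946). Sdc4, a cell-surface proteoglycan, rose in BN by 0.49 ± 0.11 (limma, adjusted p = 0.0179), 1 of 17 tested in its list. In SS it differed by 0.31 ± 0.11, with all HTV arrays above the controls, and did not pass (limma, adjusted p = 0.0966), and the difference between the strains did not pass either (adjusted p = 0.738). Of 14 further collagens 0 passed in either strain.

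**Figure D5:**
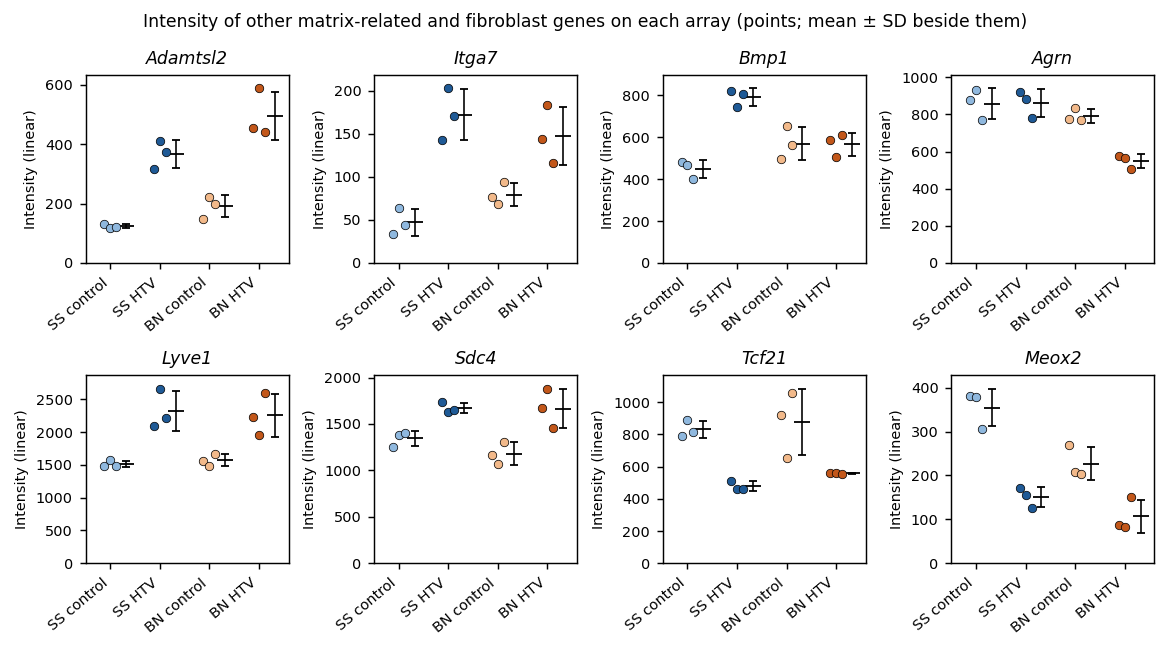
Linear intensity of 6 further matrix-related genes and of the fibroblast markers Tcf21 and Meox2 on each of the 12 arrays (points, 3 for each group), with the group mean ± SD (n = 3) beside them; each panel starts at 0 and has its own scale. Adamtsl2, Itga7 and Lyve1 are higher in HTV than in control lungs of both strains, and Tcf21 and Meox2 are lower.

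Of the further basement membrane genes, 2 of 11 were lower in BN control lungs and 5 of 11 in BN HTV lungs, with Lama2 at -0.68 ± 0.17 and -1.27 ± 0.17 (limma, adjusted p = 0.0199 and 0.000564) and Lama4 at -0.61 ± 0.15 and -0.81 ± 0.15 (adjusted p = 0.0204 and 0.00504) in both conditions. Of the 15 collagen-processing genes 1 was higher in BN control lungs, P4ha3, a prolyl hydroxylase chain, at 0.94 ± 0.17 (limma, adjusted p = 0.00364). After HTV 4 were lower, Serpinh1 (the collagen chaperone, -0.45), P3h3 (-0.89), Fkbp10 (-0.47) and Bmp1 (-0.47). Of 14 further collagens 2 were higher and 1 lower in BN control lungs, and 1 was higher and 1 lower after HTV. Col4a5 was lower in BN in both conditions, at -0.43 ± 0.11 and -0.62 ± 0.11 (limma, adjusted p = 0.0259 and 0.00455). Col8a1 was higher in both, at 0.81 ± 0.19 and 0.96 ± 0.19 (limma, adjusted p = 0.0158 and 0.00721), with dim readings of 41.6 to 66.7 in SS and 83.9 to 145 in BN. Of 14 integrin genes 2 were higher and 2 lower in BN control lungs, and 0 higher and 2 lower after HTV. For 13 further elastic fibre genes these counts were 1 and 2, then 0 and 1. Of 17 further glycoproteins and proteoglycans 1 was higher and 0 lower in BN control lungs, and 0 passed after HTV. Beside these counts, 5.11% of all tested genes were higher and 5.83% lower in BN control lungs. After HTV 3.18% were higher and 3.94% lower. The 5 of 11 basement membrane genes are 45.5% of their list, while the 1 of 17 is 5.88% and near the share of all genes.

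Some markers of the cells that make or surround the matrix differed between these groups, and their part in the results was not tested. No smooth muscle, mesothelial or macrophage marker passed for HTV in either strain. The summed intensity of 9 fibroblast markers was 5238 to 5560 in SS control and 5029 to 5253 in BN control lungs, which overlap, and 3943 to 4455 in SS HTV and 3711 to 4889 in BN HTV lungs. Of 8 fibroblast markers tested, Tcf21 (a fibroblast transcription factor) fell with HTV, at -0.78 ± 0.14 in SS and -0.61 ± 0.14 in BN, as did Meox2, at -1.15 ± 0.19 and -1.01 ± 0.19 (limma, adjusted p between 0.00313 and 0.0224). In BN control lungs Cdh11 was higher, at 0.53 ± 0.12, and Dpt lower, at -0.67 ± 0.18 (limma, adjusted p = 0.0167 and 0.0305). Neutrophil markers rose with HTV, 5 of 6 in SS and 6 of 6 in BN, beside 3.88% and 2.97% of all tested genes. Their sums were 1371 to 2320 in SS control, 5284 to 8023 in SS HTV, 905 to 1581 in BN control and 2829.6 to 8355 in BN HTV lungs.

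With strain, 2 of 7 endothelial markers (Pecam1 and Vwf) were higher in BN in both conditions, and the summed endothelial signal was 8490 to 8725 in SS control against 10900.3 to 11462 in BN control lungs. After HTV it was 8098 to 9697 in SS and 10547 to 11229.7 in BN lungs. Of 6 cardiac muscle markers, which in a lung sample can come from the sleeves of the pulmonary veins, 5 were higher in BN control lungs and 1 after HTV, with sums of 71.0 to 474 in SS control, 132 to 1037 in SS HTV, 1085 to 2402 in BN control and 793 to 3644 in BN HTV lungs. Smooth muscle markers summed to 2300.4 to 3181 in SS control and 2165 to 2818 in BN control lungs, which overlap. Of the 9 tested Cspg4 was higher and Tagln lower in BN control lungs, and 0 passed between strains after HTV. Of 5 macrophage markers 0 passed in control lungs and Cd68 was lower in BN after HTV. In neither condition did a mesothelial or platelet marker pass. The 8 cartilage markers with a probe set all lay below the brightness filter. Alveolar epithelial markers, which check the tissue label, summed to between 18596 and 23908 over the 4 groups, and no marker in these lists was at 0 on any array. Of the 8 tested Aqp5 was lower in BN in both conditions. Beside these marker counts, 10.9% of all tested genes were called between strains in control lungs and 7.13% after HTV.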

How the data were processed

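Rat lung RNA was hybridised to 12 Affymetrix arrays, 3 for each group. The deposited values are linear intensities made by the authors with MAS5, per the submitters' processing notes; its version and settings are unknown here. Each array's trimmed mean was close to 150. Of 31099 probe sets, 57 were controls, 20826 were annotated to 1 gene, 436 to several and 9780 to none.

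Values were taken as log2(intensity + 16), with no further normalization. Probe sets whose mean lay under the 40th percentile (an intensity of 42.2) were dropped, which left 18625. A limma 3.58.1 model (R 4.3.3) with 4 group means and a variance trend gave 6 comparisons (HTV in each strain, their average and their difference, and strain in each condition), leaving 8 residual degrees of freedom. Within each comparison the Benjamini-Hochberg adjustment ran over all kept probe sets. The pseudocount of 16 makes folds of dim genes smaller. The fit was tested on simulated data.

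The members and all gene lists were chosen with earlier results of these data known. Any member could be named; array values were given for members past the test in at least 1 comparison and a panel of 9 others, and single array values of Sparc and Vcan were added after they were seen. From each further list up to 4 genes per comparison with the smallest adjusted p were named, and marker lists were given by summed intensity. Promoter sequences came from RefSeq (GRCr8), which had a window for 25 of the 37 members. Alternatives changed the pseudocount, filter, scaling, variance trend, array weights, arrays in the model, probe set rule, a beta-actin covariate and the arrays included.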

Additional observations from a re-analysis of the deposited data

How the results depend on the processing

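The HTV counts were small and moved with the settings. Counts over all probe sets, in brackets, moved too. Members past the test for HTV in SS, 2 as reported (1502), were 1 with no filter (1257) and 0 with only the arrays compared (810). They were 4 with the mean over a gene's kept probe sets (1352, where a gene counts once) and 4 with the beta-actin covariate (1854). When 1 array was left out they were 0 to 3 (630 to 1506). For HTV in BN, 2 as reported (1084), they were 5 after quantile normalization (1137) and 1 with only the arrays compared (959). They were 5 with SS control 3 and BN HTV 3 left out together (1555) and 0 to 3 when 1 array was left out (540 to 1462). For HTV averaged over the strains, 1 as reported (2930), they were 0 with no filter (2845) and 2 after quantile normalization (2993). They were 2 with array weights (3895), 4 with the beta-actin covariate (3416) and 3 with both arrays left out (3274). When 1 array was left out they were 0 to 2 (2189 to 3033). For the strain comparison in control lungs, 10 as reported (2281), the count was 3 to 11 when 1 array was left out (744 to 2328). For that in HTV lungs, 13 as reported (1535), it was 9 to 19 over every setting (581 to 2200). The difference of the HTV effects between strains had 0 members past the test under every setting run. Of 28 called member results, 10 kept their call under every alternative, 18 lost it under at least 1 and 0 changed direction. Of 194 that were not called, 40 passed under at least 1. No paired analysis was possible because the groups share no replicate numbers in the labels. The cause of these changes was not tested, and with 3 arrays a group a missed threshold does not show that groups were alike.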
